A study of Homo sapiens with 8 samples.

Results

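Transcripts of the MHC class I antigen presentation pathway were examined in a PC3 prostate cancer model of epithelial-mesenchymal transition (EMT). The members were HLA-B, HLA-C, HLA-E, HLA-F, B2M, TAP1, TAP2, TAPBP and PSMB9. They were found by their gene symbols in the annotation of the arrays, which gave 9 of 19775 genes and 25 of 54613 non-control probe sets. HLA-B, HLA-E, HLA-F, B2M and TAPBP had 3 probe sets each, HLA-C and TAP2 had 4 each, and TAP1 and PSMB9 had 1 each. None of the 25 probe sets listed a second symbol.

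Expression was measured on 8 Affymetrix U133 Plus 2.0 arrays, 1 for each sample. The EMT group comprised PC3-EMT1, PC3-EMT12 and PC3-EMT14, mesenchymal populations isolated after PC3-Epi cells had been co-cultured with IL4-treated human macrophages. They were compared with PC3-Epi (1 array), an epithelial derivative of the PC3 line that carries a luciferase vector. The sh4 group comprised PC3-EMT1 and PC3-EMT14 transduced with a lentiviral shRNA against ZEB1, a repressor of epithelial genes, and the labels describe these cells as epithelial. The Scr group comprised the same 2 lines with a scrambled shRNA. All cells descend from PC3-Epi, RNA was taken after 2 days of recovery, and each line is 1 population with 1 array in each state. The labels do not say that arrays of a group are separate cultures, so a p-value here covers only the spread among these arrays, which may be technical.

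MHC class I molecules display peptides from the inside of the cell to CD8 T cells, and every nucleated cell can make them. Proteasomes cut proteins into peptides, and the immunoproteasome, with PSMB9 as one of its catalytic subunits, favours ends that fit class I grooves. The TAP1-TAP2 transporter pumps the peptides into the endoplasmic reticulum, where tapasin (TAPBP) bridges it to empty class I molecules. Each of these consists of a heavy chain (HLA-B, HLA-C, HLA-E or HLA-F) and the light chain B2M. Interferons raise transcription of most of these genes, and tumours often lower it. In the results below, levels and differences are on the log2 scale of the deposited values, on which 1 unit is a 2-fold difference.

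According to RefSeq (GRCh38.p14), B2M lies on chromosome 15 and the other members on chromosome 6. TAP1 and PSMB9 are neighbours that are transcribed away from each other, with 487 bases between their start sites. Promoters were matched for 8 of the 9 members, the exception being HLA-E. The 250 bases before the start site are printed for TAP1, PSMB9 and TAPBP, the members with a matched promoter that rose in the EMT lines, and for TAP2, HLA-B and B2M, which did not pass the test. Capitals mark GAAANNGAA or GAANNGAAA on either strand, the core of the interferon-stimulated response element. Each run is written 5′ to 3′ on the strand of its gene, and the first 2 windows share 13 bases.
TAP1, chr6:32853705-32853954, minus strand: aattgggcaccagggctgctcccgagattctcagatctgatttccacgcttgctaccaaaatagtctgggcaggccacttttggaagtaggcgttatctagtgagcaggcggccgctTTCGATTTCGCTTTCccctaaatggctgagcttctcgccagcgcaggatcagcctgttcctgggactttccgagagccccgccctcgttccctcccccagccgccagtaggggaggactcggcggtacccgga
PSMB9, chr6:32853942-32854191, plus strand: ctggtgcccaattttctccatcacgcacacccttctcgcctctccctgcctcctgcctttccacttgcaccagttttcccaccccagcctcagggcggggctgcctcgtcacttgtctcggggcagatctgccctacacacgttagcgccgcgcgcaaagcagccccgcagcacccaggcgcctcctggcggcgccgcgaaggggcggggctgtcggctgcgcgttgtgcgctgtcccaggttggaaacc
TAPBP, chr6:33314079-33314328, minus strand: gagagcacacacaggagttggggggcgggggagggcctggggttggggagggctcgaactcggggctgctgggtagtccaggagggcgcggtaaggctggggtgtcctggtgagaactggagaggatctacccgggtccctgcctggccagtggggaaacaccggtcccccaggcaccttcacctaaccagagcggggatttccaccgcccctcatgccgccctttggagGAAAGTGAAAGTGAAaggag
TAP2, chr6:32838740-32838989, minus strand: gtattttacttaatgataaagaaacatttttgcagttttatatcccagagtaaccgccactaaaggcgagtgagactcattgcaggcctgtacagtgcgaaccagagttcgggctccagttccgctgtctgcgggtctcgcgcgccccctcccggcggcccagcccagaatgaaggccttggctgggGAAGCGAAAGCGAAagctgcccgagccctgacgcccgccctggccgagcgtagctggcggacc
HLA-B, chr6:31357180-31357429, minus strand: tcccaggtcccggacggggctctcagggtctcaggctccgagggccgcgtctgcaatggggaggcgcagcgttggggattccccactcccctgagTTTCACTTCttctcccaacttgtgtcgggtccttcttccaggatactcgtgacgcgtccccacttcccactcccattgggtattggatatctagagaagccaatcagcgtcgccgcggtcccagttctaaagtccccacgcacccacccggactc
B2M, chr15:44711267-44711516, plus strand: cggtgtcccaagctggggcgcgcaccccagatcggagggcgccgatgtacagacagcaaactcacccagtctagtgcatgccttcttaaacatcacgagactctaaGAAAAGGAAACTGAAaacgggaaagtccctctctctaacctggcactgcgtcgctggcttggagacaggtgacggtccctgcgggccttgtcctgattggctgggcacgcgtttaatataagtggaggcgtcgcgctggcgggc

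The capitals occurred in 7 of 8 member promoters, all but PSMB9, against 12.4% of 35116 promoters of the same length. GAAANNGAA alone was in 5 of 8 (HLA-F, B2M, TAP1, TAP2 and TAPBP), against 6.88% of all promoters, and GAANNGAAA in 3 (HLA-B, HLA-C and TAP2), against 6.56%. The 2 motifs overlapped in TAP2. GGNNTTNCC, a core of NF-kB sites, was in 4 of 8 (HLA-B, B2M, TAP1 and TAPBP), against 15%. CCAAT, bound by NF-Y, was in 6, against 32% of all promoters, and TGACG, a partial CREB site, was in 5, against 21.2%. CAGGTG or CAGGTA, the E-box forms bound by ZEB1, were in 1 (B2M), against 23.8%. The motifs were chosen with the sequences in view, and both strands were searched. Over these windows HLA-B matched HLA-C at 89% and HLA-F at 80.4% of aligned bases. The sequences are those of the reference genome and not of PC3 cells, and HLA genes vary between people.

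The medians of the 4 untransduced arrays (4.33 to 4.35) and of the 4 transduced ones (6.19 to 6.23) showed separate scaling, so levels were compared only within each of these sets. A probe set was tested where at least 1 array exceeded the highest Bacillus subtilis control of its set, at 4.56 for the untransduced and 6.00 for the transduced arrays. Of the 13 heavy chain probe sets, 11 had the suffix _x_at, which marks probes that can also match other transcripts, so the values of single HLA genes from them are uncertain. ZEB1 was higher by 3.73 ± 0.25 (SE) in the EMT lines than in PC3-Epi, and CDH1, the epithelial cadherin, was lower by a difference of -7.74. With sh4, ZEB1 differed from Scr by -0.74 in PC3-EMT1 and by -1.07 in PC3-EMT14. KRT8, KRT18, KRT19 and EPCAM, markers of prostate epithelium, were above the control on every array. CDH1 was above it in the sh4 cells and in PC3-Epi, and not in the EMT or Scr cells. Of 16 macrophage and leukocyte markers, 1 (LAPTM5) exceeded the control on the untransduced arrays and 3 to 5 on the transduced arrays. LAPTM5, CSF1R and AIF1 did so on every transduced array, ITGAM on all but PC3-EMT14-sh4, and MS4A7 on PC3-EMT1-Scr. The others, among them CD14, PTPRC, CD163 and LYZ, were below it throughout. The summed linear level of the 16 markers was 215 to 221 in the EMT lines and 218 in PC3-Epi. It was 807 (PC3-EMT14) and 815 (PC3-EMT1) with sh4, and 730 (PC3-EMT14) and 857 (PC3-EMT1) with Scr.

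**Figure D1:**
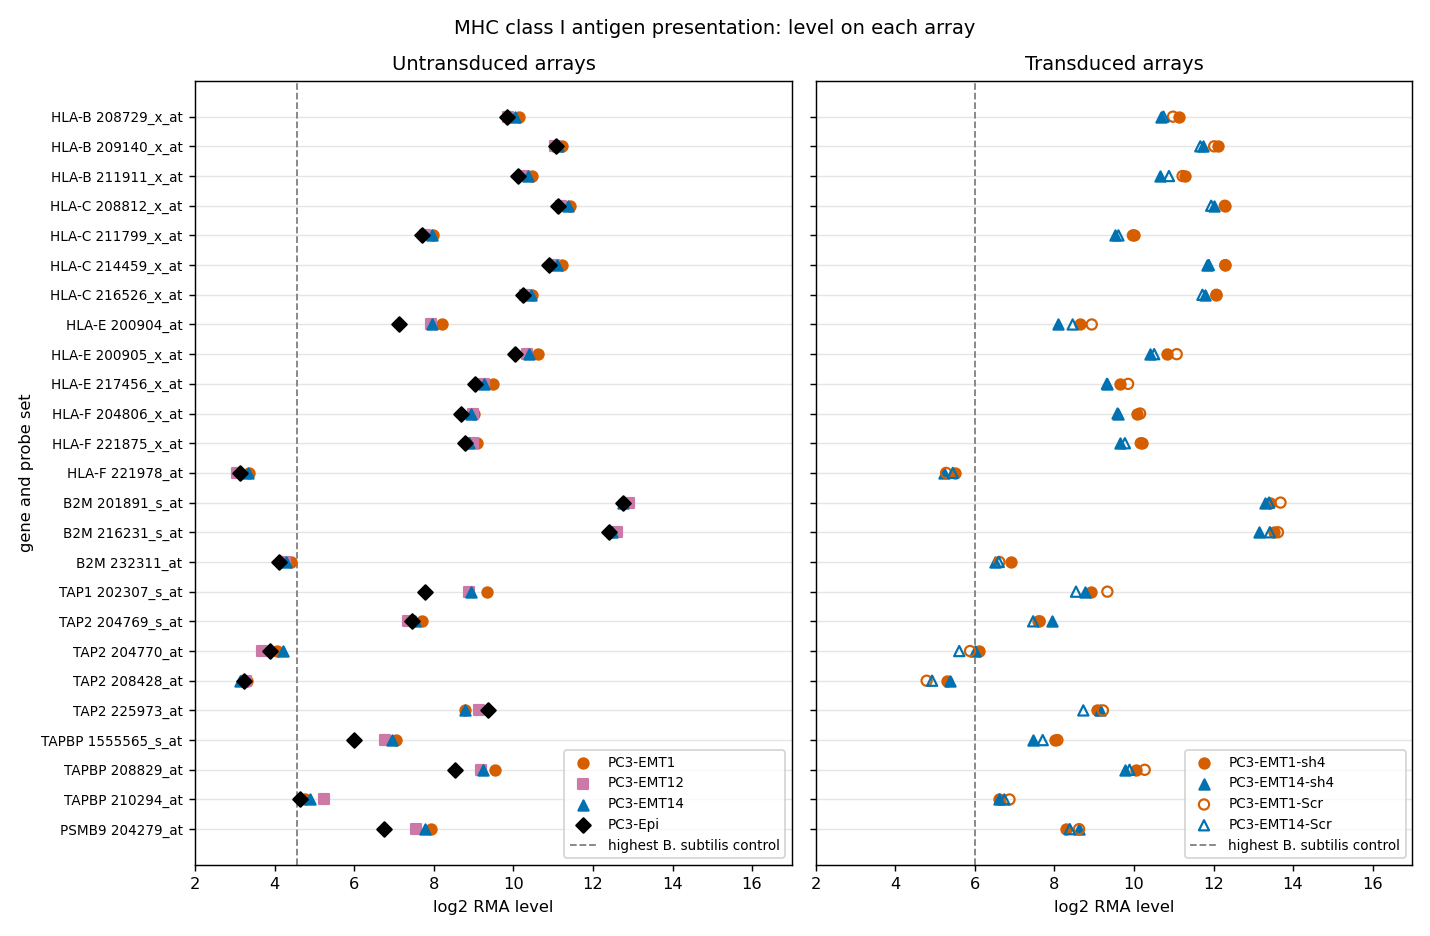
Log2 level (x axis) of the 25 member probe sets (rows) on the 4 untransduced arrays (left) and the 4 transduced arrays (right), with each array as a symbol and the highest Bacillus subtilis control as a dashed line. TAP1, PSMB9, HLA-E 200904_at and the upper 2 TAPBP probe sets stand apart from PC3-Epi in all 3 EMT lines, whereas HLA-B, HLA-C and the bright B2M probe sets nearly coincide.

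To determine whether class I genes differed between the mesenchymal and epithelial states, the 3 EMT lines were compared with PC3-Epi. Genes for making and loading peptides (TAP1, TAPBP and PSMB9) and 1 probe set of HLA-E rose in the EMT lines, between 1.72-fold and 2.41-fold. No probe set of HLA-B, HLA-C, HLA-F, B2M or TAP2 passed the test. Of 25 member probe sets, 21 were tested. Of these, 5 (23.8%) had an adjusted p under 0.05 in limma, and all 5 were higher. Over the whole array, 24.5% of 27734 probe sets passed in either direction, 9.89% as higher and 14.6% as lower. The share of members that passed was thus near that of all probe sets. The difference was positive in all 3 lines for 18 of the 21, against 43.3% of all probe sets, and negative in all 3 lines for 1 (TAP2 225973_at), against 37%. The median difference of the 21 was 0.22, against 0.05 over all probe sets, whose quartiles were -0.38 and 0.34. RNA was taken from bulk cultures, where fewer expressing cells and less RNA per cell cannot be told apart.

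TAP1, the transporter subunit, had the largest difference of the tested members. It was at 9.34 in PC3-EMT1, 8.87 in PC3-EMT12 and 8.92 in PC3-EMT14, against 7.78 in PC3-Epi. All 3 lines lay over 2-fold above PC3-Epi, by 1.56, 1.09 and 1.14, and TAP1 was the 1 member to do so. Of all 27734 probe sets, 559 were 2-fold higher in every line and 1307 were 2-fold lower, together 6.73%. The mean difference was 1.27 ± 0.22 (SE, limma, adjusted p = 0.013), or 2.41-fold.

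PSMB9, the immunoproteasome subunit encoded beside TAP1, was at 7.94, 7.55 and 7.77 in EMT lines 1, 12 and 14, against 6.74 in PC3-Epi. Again no EMT line reached down to the level of PC3-Epi, and PC3-EMT12 was the lowest of the 3. The mean difference was 1.02 ± 0.19 (SE, limma, adjusted p = 0.016), or 2.02-fold.

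Tapasin gave the same direction in each of its probe sets. TAPBP 1555565_s_at was at 7.05, 6.77 and 6.96 in EMT lines 1, 12 and 14, against 5.98 in PC3-Epi. TAPBP 208829_at was at 9.55, 9.18 and 9.23 in the same lines, against 8.54 in PC3-Epi. Both were higher in every EMT line, by means of 0.94 ± 0.17 and 0.78 ± 0.19 (SE, limma, adjusted p = 0.014 and 0.034). The second did not pass without PC3-EMT14 (0.83, adjusted p = 0.072). The third probe set, 210294_at, was close to the control ceiling, with 4.77, 5.25 and 4.89 in the EMT lines and 4.63 in PC3-Epi (adjusted p = 0.284).

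TAP2, the partner of TAP1 in the transporter, did not follow TAP1. TAP2 225973_at was at 8.79, 9.13 and 8.79 in EMT lines 1, 12 and 14, against 9.35 in PC3-Epi, a mean difference of -0.45 ± 0.19 (SE, limma, adjusted p = 0.133). Without PC3-EMT12 it passed as lower (-0.56, adjusted p = 0.036). TAP2 204769_s_at was at 7.69, 7.35 and 7.52 in those lines and 7.45 in PC3-Epi, so PC3-Epi lay within the range of the EMT lines. The remaining 2 TAP2 probe sets were under the control ceiling on the untransduced arrays and were not tested there.

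HLA-E, a non-classical heavy chain that presents signal peptides of other class I chains to the NKG2A receptor of natural killer cells, gave unequal values by probe set. HLA-E 200904_at, the member of its 3 without the _x_at suffix, was at 8.20, 7.93 and 7.96 in EMT lines 1, 12 and 14, against 7.13 in PC3-Epi. It rose by 0.90 ± 0.17 (SE, limma, adjusted p = 0.016), or 1.87-fold. The _x_at probe sets were also higher in every line, with means of 0.41 (adjusted p = 0.129) and 0.30 (adjusted p = 0.235). The mean of the 3 probe sets passed the test (0.54, adjusted p = 0.045).

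The classical heavy chains and the light chain, which present most peptides on the cell surface, stood close to PC3-Epi. Differences were 0.07 to 0.25 for the 3 probe sets of HLA-B and 0.15 to 0.22 for the 4 of HLA-C. HLA-B 209140_x_at, for instance, was at 11.23, 11.04 and 11.13 in EMT lines 1, 12 and 14, against 11.06 in PC3-Epi, which lay inside the range of the EMT lines. HLA-C 208812_x_at was at 11.41, 11.19 and 11.36 in EMT lines 1, 12 and 14, against 11.12 in PC3-Epi. The 7 classical probe sets had adjusted p-values between 0.275 and 0.746. B2M 201891_s_at was at 12.75, 12.90 and 12.76 in the EMT lines, against 12.74 in PC3-Epi, and its tested probe sets differed by 0.06 and 0.12. HLA-F, another non-classical heavy chain, differed by 0.29 and 0.21 in its tested probe sets (adjusted p = 0.180 and 0.346).

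**Figure D2:**
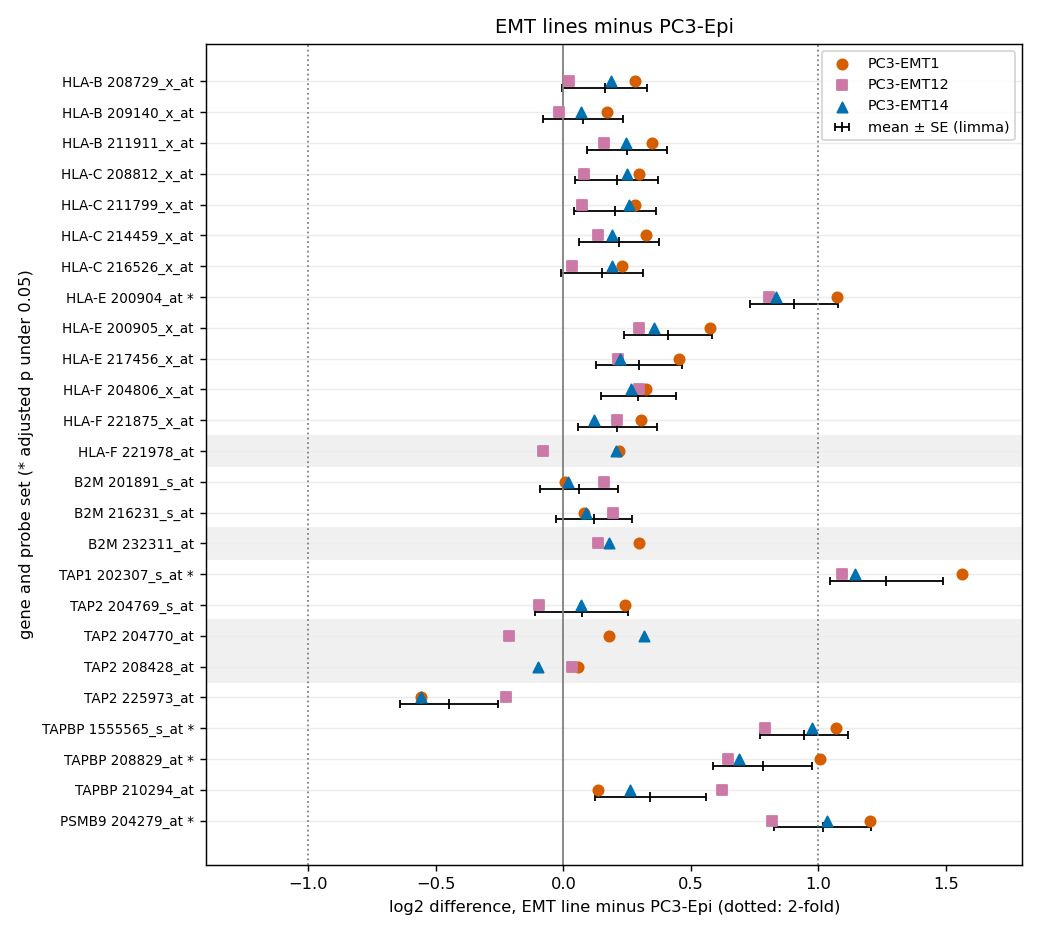
Difference from PC3-Epi (x axis, log2) of each EMT line (symbols) for the member probe sets (rows), with the limma mean and SE as black bars; shaded rows were not tested, and dotted lines mark 2-fold. The 5 starred probe sets belong to HLA-E, TAP1, TAPBP and PSMB9, and TAP2 225973_at lies below 0 in all 3 lines.

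The rest of the pathway was described with lists of genes, each represented by 1 probe set. The counts of each list stand against 24.5% of all probe sets that passed, 9.89% as higher and 14.6% as lower. Of 4 further immunoproteasome genes, PSME1, a subunit of the proteasome activator, rose by 0.67 ± 0.15 (SE, limma, adjusted p = 0.023). PSMB8, which is encoded between TAP1 and TAP2, was at 9.72, 9.29 and 9.32 in EMT lines 1, 12 and 14, against 8.76 in PC3-Epi, and did not pass (adjusted p = 0.063). PSMB10 and POMP did not pass either. The constitutive proteasome had 1 of 14 genes lower (PSMA3, -0.66) and 13 that did not pass, with a list median of 0.16. None of 10 tested chaperones and trimming enzymes passed, and their median was -0.20. The largest differences in that list were -0.60 for TPP2, a peptidase of the cytosol, and 0.54 for SEC61A1, a channel of the endoplasmic reticulum membrane. HLA-G and HLA-J, from a list of further class I heavy chains and pseudogenes, differed by 0.34 and 0.40 and did not pass. Both were read from _x_at probe sets, so their values are uncertain in the same way as those of the member heavy chains.

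Among 13 tested regulators of class I transcription, RELA, a subunit of NF-kB, was higher (0.59). CREB1 (-0.69) and EZH2 (-0.57), a histone methyltransferase, were lower, and 10 did not pass. The share of regulators that passed was near the 24.5% of all probe sets. NLRC5, the class I transactivator, was under the control ceiling on the untransduced arrays. Of 11 tested genes of the interferon-gamma pathway, SOCS3, a feedback inhibitor, and the receptor chain IFNGR2 were higher by 1.05 and 0.77. The kinase JAK2 (-1.30) and GBP1 (-0.88), a guanylate-binding protein, were lower, and 7 did not pass. In the EMT lines JAK2 (4.51 to 4.84) and GBP1 (4.60 to 5.19) were close to the control ceiling of 4.56. Of 15 type I interferon receptor and response genes, 4 were higher, against 9.89% of all probe sets, and none lower, against 14.6%. The larger of these were IFI6 (1.36), TYK2 (1.28) and IFI35 (1.19), and the fourth was IFNAR2. MX1 and OAS1, effectors against viruses, did not pass, with -0.03 and -0.20. Of the 15 genes, 8 were higher in all 3 EMT lines, against 43.3% of all probe sets. The 2 that were lower in all 3, against 37%, were IFI27 (-0.88) and RIGI (-0.57), and neither passed. Of 9 tested class I-like molecules and ligands of natural killer cells, FCGRT, the neonatal Fc receptor heavy chain that also pairs with B2M, and NECTIN2 were higher (1.01 and 0.55). MHC class II had 4 of 8 genes above the ceiling, of which HLA-DMA, a chaperone of class II peptide loading, was lower (-1.06). HLA-DMA was also near the ceiling in the EMT lines, at 4.28 to 4.65. HLA-DRA, a class II chain, was under the ceiling on every array. Of the 16 list genes that passed in this comparison, 7 still passed without PC3-EMT14 and 11 without PC3-EMT1, with no change of direction. Without PC3-EMT14 these 9 genes did not pass: CREB1, EZH2, GBP1, IFNAR2, IFNGR2, NECTIN2, PSMA3, PSME1 and RELA. Without PC3-EMT1 the 5 that did not pass were CREB1, EZH2, IFNAR2, NECTIN2 and PSMA3.

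The next comparison asked whether knockdown of ZEB1 moved class I transcripts, with sh4 against Scr in each line. No member differed by 2-fold, and most values differed by small amounts that were not alike in the lines. Of 23 member probe sets tested, 0 passed (limma, adjusted p under 0.05), against 0% of all 31363 probe sets. At an unadjusted p under 0.05 there were 4521 probe sets, among them 1 member, HLA-E 200904_at. By size alone, 0.367% of all probe sets and no member differed 2-fold in both lines. Of the 23, 3 were higher in both lines, against 30.8% of all probe sets, and 8 were lower in both, against 32.4%. The median of the members was -0.04, against -0.01 over all probe sets. The limma fit had 1 residual degree of freedom, and a miss of the threshold does not show that the levels were alike.

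HLA-E 200904_at was at 8.63 with sh4 and 8.94 with Scr in PC3-EMT1, and at 8.10 with sh4 and 8.46 with Scr in PC3-EMT14. It was lower with sh4 in each line, although the groups overlapped across lines, by a mean of -0.33 ± 0.12 (SE, limma, adjusted p = 0.334). TAPBP had all 3 probe sets below Scr in both lines, with means between -0.20 and -0.14 (adjusted p = 0.477 to 0.605). TAPBP 208829_at, for instance, was at 10.06 with sh4 and 10.27 with Scr in PC3-EMT1, and at 9.78 with sh4 and 9.89 with Scr in PC3-EMT14. For B2M, the 2 bright probe sets were lower with sh4 in both lines, by means of -0.19 and -0.20, and did not pass. HLA-B and HLA-C had mean differences between -0.08 and 0.08.

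TAP1 and PSMB9, which had risen in every EMT line, had opposite signs in the lines. TAP1 was at 8.92 with sh4 and 9.33 with Scr in PC3-EMT1, and at 8.77 with sh4 and 8.54 with Scr in PC3-EMT14. PSMB9 was at 8.30 with sh4 and 8.62 with Scr in PC3-EMT1, and at 8.63 with sh4 and 8.39 with Scr in PC3-EMT14. Both genes were thus lower with sh4 in PC3-EMT1 and higher with sh4 in PC3-EMT14. The probe sets of TAP2 were divided. TAP2 225973_at (-0.15 in PC3-EMT1 and 0.41 in PC3-EMT14) and 204769_s_at (-0.03 and 0.47 in these lines) had the signs of TAP1. TAP2 204770_at, close to the control ceiling, was at 6.11 with sh4 and 5.88 with Scr in PC3-EMT1, and at 6.01 with sh4 and 5.61 with Scr in PC3-EMT14. It was higher with sh4 in both lines, but it exceeded the control ceiling only on the 2 sh4 arrays. It thus entered the test only through the group where it was higher. Its mean of 0.31 ± 0.12 (SE, limma, adjusted p = 0.354) is therefore not read as a difference. The other, 208428_at, was under the ceiling on every array and was not tested, with 0.52 in PC3-EMT1 and 0.46 in PC3-EMT14. These responses come from 1 array for each line and state, so the difference between lines was not tested. Of the 23 member probe sets, 7 (30.4%) were lower in PC3-EMT1 and higher in PC3-EMT14, against 18.8% of all probe sets, and 5 (21.7%) had the reverse signs, against 17.6%. The summed level of the macrophage and leukocyte markers given above had the signs of TAP1. Most of those markers were under the control ceiling on each transduced array, so the sum has little signal over background. MS4A7 alone was at 5.82 with sh4 and 6.51 with Scr in PC3-EMT1. The part of the summed level in the member values was not tested.

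**Figure D3:**
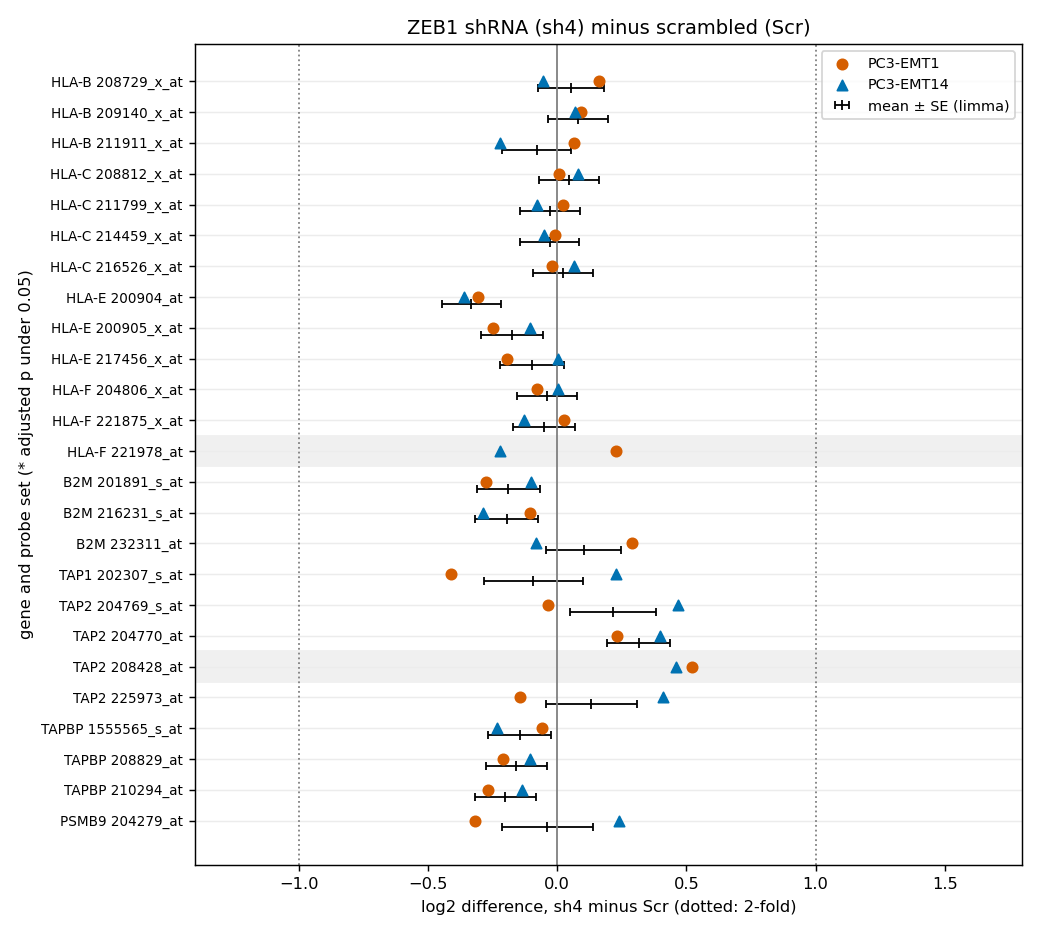
Difference of sh4 minus Scr (x axis, log2) in PC3-EMT1 (circles) and PC3-EMT14 (triangles) for the member probe sets (rows), with the limma mean and SE as black bars; shaded rows were not tested. TAP1 lies at -0.41 and 0.23 and PSMB9 at -0.32 and 0.24, whereas HLA-E 200904_at is below 0 in both lines.

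In every gene list, 0 genes passed for sh4 against Scr. The type I interferon list had the lowest median, -0.34 over 15 genes. Of these genes, 8 were lower with sh4 in PC3-EMT1 and higher with sh4 in PC3-EMT14, against 18.8% of all probe sets. A further 6 were lower in both lines, against 32.4%, and 1 had the reverse signs, against 17.6%. These counts were not tested. MX1 was at 8.34 with sh4 and 9.77 with Scr in PC3-EMT1, and at 7.60 with sh4 and 7.27 with Scr in PC3-EMT14. OAS1 was at 7.21 with sh4 and 8.70 with Scr in PC3-EMT1, and at 6.23 with sh4 and 5.62 with Scr in PC3-EMT14. Both genes had the signs of TAP1 and PSMB9, and IFI6 and IRF9 were lower with sh4 in both lines. PSMB8 also had these signs, with -0.22 in PC3-EMT1 and 0.33 in PC3-EMT14. IFI6 (-0.86) and IRF9 (-0.55) had the largest mean differences of the list, and neither passed (adjusted p = 0.295 and 0.296). In the interferon-gamma list the leading values were -0.86 for GBP2 and 0.63 for CD274, a ligand of PD-1, an inhibitory receptor of T cells, and neither passed.

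**Figure D4:**
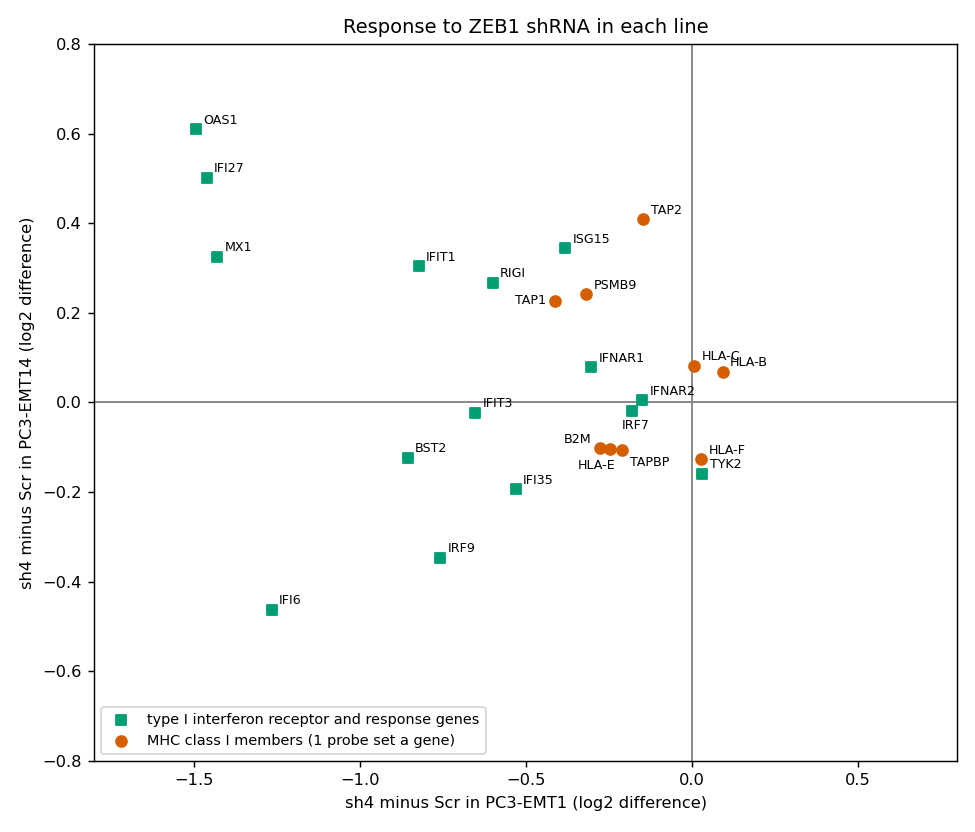
Difference of sh4 minus Scr (log2) in PC3-EMT1 (x axis) and in PC3-EMT14 (y axis) for 15 type I interferon genes (squares) and the 9 members (circles, 1 probe set a gene), with 1 array behind each value. TAP1, PSMB9 and TAP2 lie in the upper left quadrant with OAS1, IFI27 and MX1, and HLA-B, HLA-C and HLA-F lie near 0 on both axes.

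The 2 lines were also set against each other in 3 pairs, untransduced, Scr and sh4, each taken within a set of arrays scaled together. These pairs are the same 2 populations in 3 states and not separate lines. The SE and p-values of this comparison thus cover only the spread of the line difference among the states. Class I transcripts were mostly higher in PC3-EMT1 than in PC3-EMT14, with mean differences of at most 1.37-fold. Of 23 member probe sets tested, 0 passed (limma, adjusted p under 0.05), against 1.33% of 32130 probe sets, of which 63 were higher (0.196%) and 364 lower (1.13%). At an unadjusted p under 0.05 there were 13 members and 5070 probe sets in all. PC3-EMT1 was higher in all 3 pairs for 16 of the 23, against 18.2% of all probe sets, and lower in all 3 for none, against 19.3%. The median of the members was 0.28, against 0.01 over all probe sets, whose quartiles were -0.11 and 0.11. Many of the heavy chain probes can match the same transcripts, so these probe sets do not count as separate measurements.

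All 12 tested heavy chain probe sets were higher in PC3-EMT1 in each pair. The means were 0.37 to 0.42 for HLA-E (adjusted p = 0.114 to 0.151), 0.37 and 0.38 for HLA-F, 0.26 to 0.36 for HLA-B and 0.22 to 0.33 for HLA-C. HLA-B 209140_x_at differed by 0.10 in the untransduced pair, 0.35 in the Scr pair and 0.37 in the sh4 pair. The untransduced pair was scaled apart from the Scr and sh4 pairs, so the size of its differences was not set against theirs. TAP1 was higher by 0.42, 0.79 and 0.15 in the untransduced, Scr and sh4 pairs, a mean of 0.45 ± 0.14 (SE, limma, adjusted p = 0.162). PSMB9 was higher by 0.17 and 0.23 in the first 2 pairs and lower in the sh4 pair (-0.33). TAPBP 208829_at and 1555565_s_at were higher in every pair, by means of 0.33 and 0.34. The means of TAP2 and B2M were between 0.00 and 0.19.

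**Figure D5:**
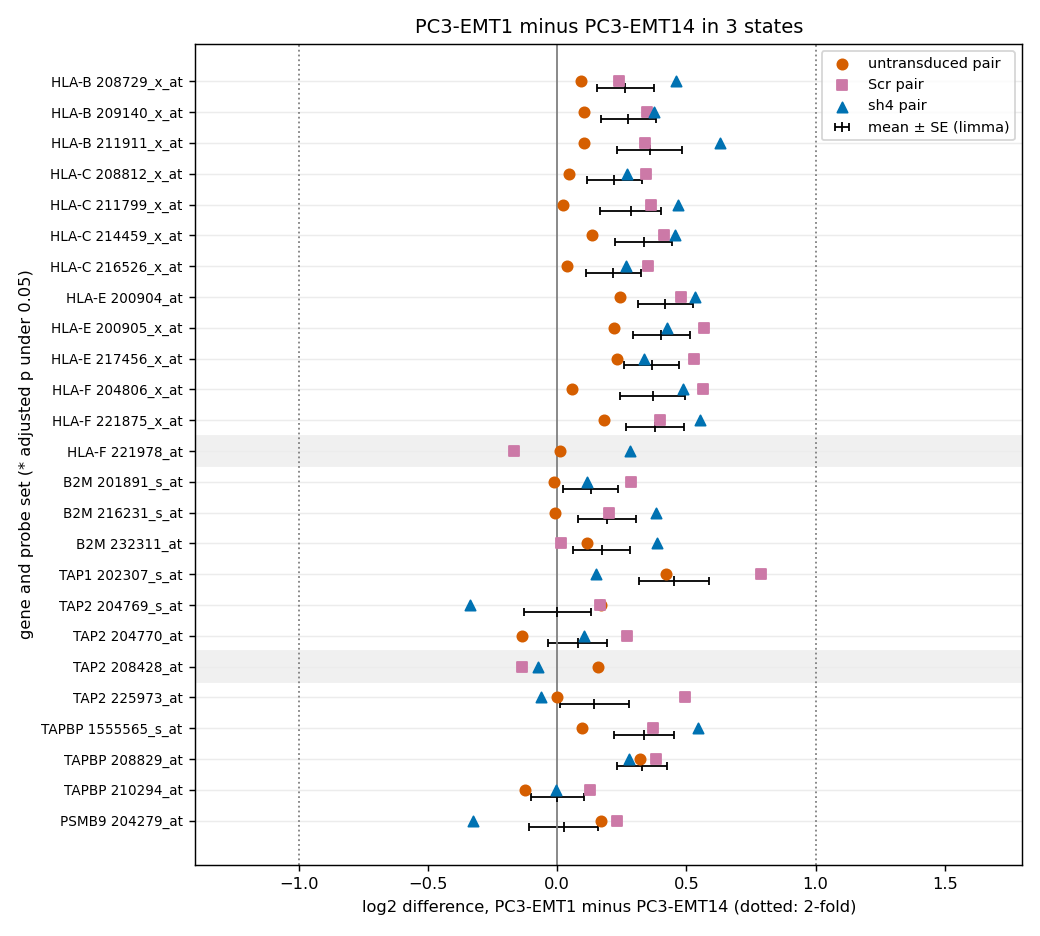
Difference of PC3-EMT1 minus PC3-EMT14 (x axis, log2) in the untransduced, Scr and sh4 pairs (symbols) for the member probe sets (rows), with the limma mean and SE as black bars; shaded rows were not tested. The tested heavy chain probe sets (HLA-B to HLA-F) lie above 0 in every pair, whereas PSMB9 and TAP2 204769_s_at fall below 0 in the sh4 pair.

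Type I interferon genes ran in the same direction, with a median of 0.84. Of 15, 4 were higher in PC3-EMT1, against 0.196% of all probe sets, and none was lower, against 1.13%. IFIT1, an inhibitor of viral RNA, was higher by 1.66 ± 0.22, IFIT3 by 1.06 ± 0.13 and ISG15, a ubiquitin-like modifier, by 0.87 ± 0.15 (SE, limma, adjusted p = 0.026, 0.024 and 0.045). The other was IRF9, a subunit of the factor that binds the response element marked in the promoters, at 0.84. IFIT1 was at 10.25 in PC3-EMT1 and 8.95 in PC3-EMT14 untransduced, at 12.42 in PC3-EMT1 and 10.02 in PC3-EMT14 with Scr, and at 11.59 in PC3-EMT1 and 10.32 in PC3-EMT14 with sh4. Of the 15 genes, 11 were higher in PC3-EMT1 in all 3 pairs, against 18.2% of all probe sets. None was lower in all 3, against 19.3%. Without the untransduced pair no probe set of the whole array passed, these 4 genes included (4149 at an unadjusted p under 0.05), and ISG15 did not pass without the Scr pair or without the sh4 pair (adjusted p = 0.063 and 0.068). No gene of the other lists passed. Among the regulators the leading value was 0.54 for NFYB and in the interferon-gamma list 0.61 for GBP1, and among the immunoproteasome genes it was 0.38 for PSMB8.

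The genes whose pattern over the 8 arrays was most like that of TAP1, after the mean of each scaled set had been subtracted, were ADARB1 (Pearson r = 0.98), PLAAT4 (0.97), PRR16 (0.96), GCAT (0.96) and CDYL2 (0.95). Those most like HLA-B 209140_x_at were TFF2 (0.97), CD44 (0.93), KRTAP3-1 (0.90), TFF1 (0.89) and IFIT1 (0.85). These correlations describe 8 arrays of related lines, chosen as the highest of 1457 candidates, and HLA-B itself varied little, with an SD of 0.15 against 0.49 for TAP1.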

How the data were processed

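The 8 samples were each hybridised to an Affymetrix array (54675 probe sets). RMA in the affy package was used by the authors, and the deposited log2 values were used unchanged, with every column assigned to a sample. The p-values of single genes come from limma 3.58.1 in R 4.3.3 (lmFit, eBayes) on each probe set, with Benjamini-Hochberg adjustment over all probe sets kept and a threshold of 0.05. EMT against PC3-Epi used the 4 untransduced arrays (2 residual degrees of freedom, prior 4.30), with the variance of the single PC3-Epi array taken from that of the mesenchymal lines. For sh4 against Scr the 4 transduced arrays were fitted with the line as a block (1 degree of freedom, prior 3.31). Among the sh4 and Scr samples, those with equal replicate numbers come from the same cell line and are paired. The line differences in sh4 and in Scr correlated across 31363 probe sets (r = 0.43, across probe sets that are not independent). PC3-EMT1 against PC3-EMT14 used 3 pairs with state as a block (2 degrees of freedom, prior 5.42). The number of arrays limits the precision.

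Every member probe set was reported. Genes of the lists were represented by the brightest probe set with 1 symbol, and the 3 largest differences that passed, or the 2 largest if none did, were named. Some genes were chosen after their values were seen, namely PSMB8, PSMB10, POMP, NLRC5, MX1, OAS1, IFI27, RIGI, HLA-DRA, IRF9, IFNAR2, the NFYB and GBP1 values of the line comparison and those of IFIT1 by array. The members and lists were chosen with earlier results of these data known. Symbols came from the platform annotation (41091 probe sets with 1 symbol, 1801 with several and 11721 with none). The fits were run on simulated data with independent noise on each array, which checks the code. Such data cannot show how far arrays of shared origin or a single PC3-Epi array affect the results. Alternatives covered the filter, the probe sets of a gene, normalization, an offset, the variance model, the block and each array or pair left out. Some listed genes were not analysed here.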

Additional observations from a re-analysis of the deposited data

Results flagged for a closer look

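TAP1 and PSMB9 differed from Scr with opposite signs in the lines with sh4, by at least 0.2 on the log2 scale in each. TAP1 differed from Scr by -0.41 in PC3-EMT1 and by 0.23 in PC3-EMT14. PSMB9 differed from Scr by -0.32 in PC3-EMT1 and by 0.24 in PC3-EMT14. Each value rests on 1 array with sh4 and 1 with Scr, and the difference between the lines was not tested.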

How the results depend on the processing

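No member that passed the test changed sign under any alternative, and of the tested member probe sets 3 changed their side of the threshold, all for EMT against PC3-Epi. These were HLA-E 200905_x_at (the mean of the HLA-E probe sets, 0.54), TAP2 225973_at without PC3-EMT12 (-0.56) and TAPBP 208829_at without PC3-EMT14 (0.83). The 5 members that passed for EMT against PC3-Epi became 3 of 9 genes with 1 probe set a gene, since TAPBP then counted once and HLA-E was represented by an _x_at probe set, and 4 to 6 with 1 line left out. For sh4 against Scr and for PC3-EMT1 against PC3-EMT14 no member passed under any alternative.

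Values that did not pass did change sign, for 1 of 21 member probe sets in EMT against PC3-Epi, 13 of 23 in sh4 against Scr and 5 of 23 in PC3-EMT1 against PC3-EMT14. TAP2 204769_s_at ranged between -0.014 without PC3-EMT1 and 0.15 without PC3-EMT12 in the EMT comparison. With sh4, HLA-C 214459_x_at and PSMB9 turned to 0.0014 and 0.0013 after quantile normalization, and HLA-C 216526_x_at to -0.0021 after median centring. A single line (no test) turned 12 of the 23, with TAP1 at 0.23 and PSMB9 at 0.24 without PC3-EMT1, and HLA-B 211911_x_at at 0.06 without PC3-EMT14. Between the lines, TAP2 204769_s_at, which was at 0.00, turned to 0.037 after quantile normalization and 0.17 without the sh4 pair, and TAPBP 210294_at, also at 0.00, to -0.00087 after median centring and -0.064 without the Scr pair. PSMB9 turned to -0.046 without the untransduced pair and -0.078 without the Scr pair, and TAP2 204770_at and 225973_at turned to -0.016 and -0.030 without the Scr pair.

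Over all probe sets, the 6787 that passed for EMT against PC3-Epi became 3560 with 1 probe set a gene, 3361 with the mean of the probe sets of a gene, which leave fewer features, and 3282 to 9077 with 1 line left out (3282 without PC3-EMT14). The 1866 that differed 2-fold in all lines became 954 with 1 probe set a gene, 672 with the mean, 898 with 32 added on the linear scale, 5134 at 1.5-fold and 1980 to 2726 with 1 line left out.

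For sh4 against Scr, where none passed, 4 passed with 1 probe set a gene, 27 with the mean, 31 after quantile normalization, 47 after median centring, 4 with 32 added and 2 with a variance trend. Without the replicate block of the line 1 passed, and with the replicate block over 6 arrays of both scaled sets 228 passed. The 115 past 2-fold became 68, 40 and 57 with 1 probe set a gene, the mean and 32 added, 608 at 1.5-fold, and 257 to 727 in a single line (727 without PC3-EMT1, a value with no test).

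For PC3-EMT1 against PC3-EMT14, the 427 became 259 with the mean, 164 with 32 added, 715 with a variance trend, and 0 to 293 with 1 pair left out (0 without the untransduced pair, 148 without sh4). Apart from the smaller number of features, the cause of these shifts was not tested. One array a state limits what can be told, and probe sets near the control ceiling have little signal over background.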
